A study of Zea mays with 4 samples.

Results

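The enzymes that make and polymerise lignin precursors in maize (Zea mays), and MYB transcription factors known to repress lignin genes, were followed on 4 Affymetrix maize arrays. The set held 9 genes, chosen by name from the platform annotation and its RefSeq synonyms, of 1108 named genes on the array: PAL1, cncr1, cncr2, BM1, LAC1, pox1, pox2, myb31 and myb42. Each had 1 probe set except myb42, which had 2, so that 10 of the 1452 probe sets with a single gene name entered. Total RNA came from the maize lines F98902 and Cm489, with 2 samples of each, grown in soil and described only as aerial material at flower development. No treatment, mutation or transgene is given for either line, and the labels state neither the organ nor whether the samples of a line were separate plants. Each sample name holds a different pl number, which was not taken here to mean a plant. The p-values therefore measure the spread between these samples, which may be technical.

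Lignin is a polymer of phenolic alcohols that stiffens and waterproofs the secondary walls of xylem and sclerenchyma, and in forage maize it limits how well the stem is digested. Phenylalanine ammonia-lyase opens the pathway, cinnamoyl-CoA reductase and cinnamyl alcohol dehydrogenase carry out its last reductions, and laccases and peroxidases oxidise the resulting monolignols in the wall so that they couple into the polymer. MYB31 and MYB42 of maize bind promoters of phenylpropanoid genes and lower their expression when overproduced in Arabidopsis.

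All values are log2 signals deposited by the authors after GCRMA, a method that models background, normalises arrays and gives each probe set 1 summary value. Array medians were 6.99 and 7.05 in F98902 and 7.04 and 7.11 in Cm489. Across tested probe sets, which are not independent, the arrays of F98902 correlated at r = 0.814 and those of Cm489 at r = 0.865. The other pairs ran from 0.676 to 0.828, and F98902 replicate 2 was the 1 array nearer to an array of the other line (Cm489 replicate 1, r = 0.828) than to its own. Probe sets without specific signal gather at a floor near 2, and a value below 4 is treated here as giving no level. Probe sets at or above 4 on at least 2 arrays were tested, which 11242 passed, among them 6 of the 10 lignin probe sets, 1 each for PAL1, cncr1, BM1, LAC1, myb31 and myb42. A difference in signal between the lines can come from the transcript level or from a sequence difference under the probes, and these cannot be told apart here. In whole tissue, fewer lignifying cells and less RNA per cell cannot be told apart either.

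The first question was whether the lines differed in these genes. The clearest contrast was in the repressors: myb31 and myb42 were lower on both F98902 arrays than on both Cm489 arrays, although neither difference passed the test. The enzymes PAL1, cncr1 and BM1 had nearly the same mean in both lines. Behind those close means, cncr1 and BM1 differed several-fold between the 2 arrays of each line, while PAL1 spanned 0.54 over all 4 arrays. In the limma fit, 0 of the 6 tested genes had an adjusted p under 0.05, against 1.78% of all tested probe sets. The smallest difference among the called probe sets was 3.62 in size, while the largest in size among the 6 genes was -2.27, for myb31. An unadjusted p under 0.05 was found for myb31 alone among the 6, and for 1183 of all 11242 tested probe sets. By their means 3 of the 6 were higher and 3 lower in F98902, with a median difference of -0.31, beside -0.0194 over all tested probe sets.

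**Figure D1:**
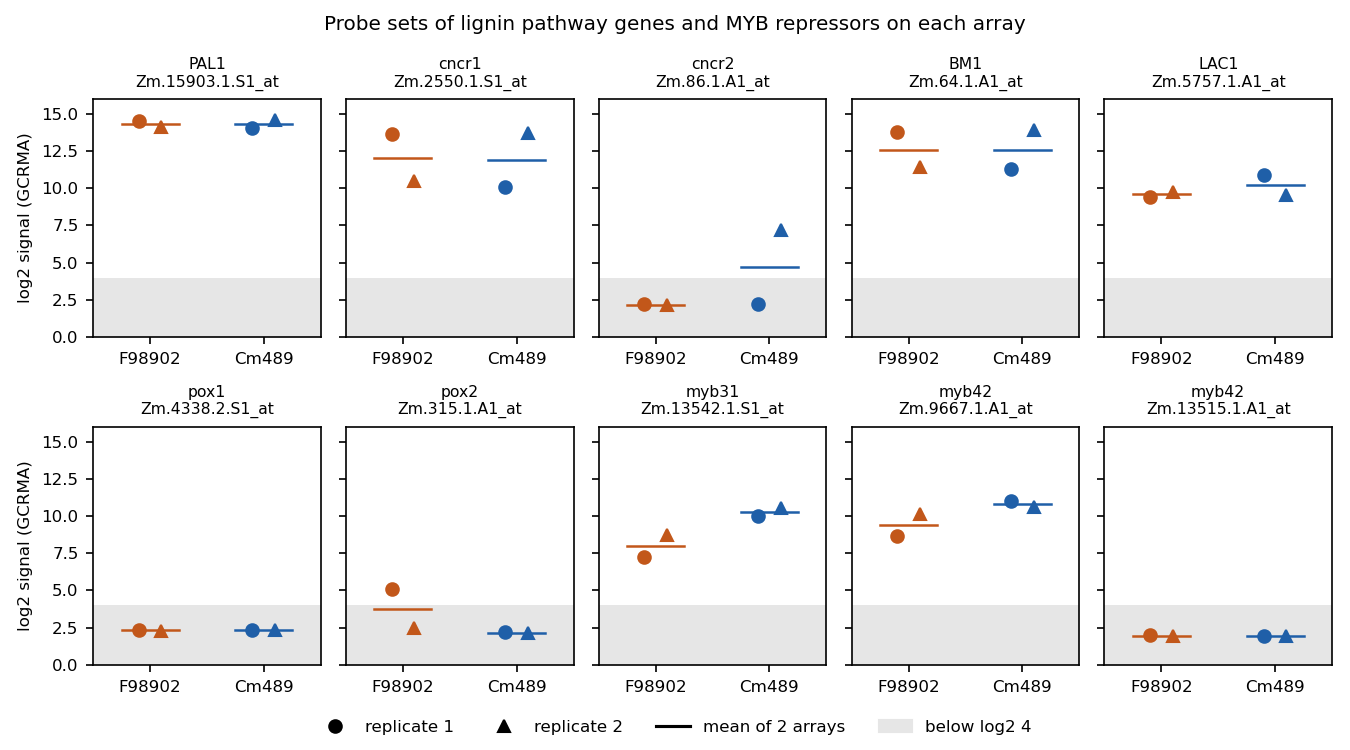
Log2 signal of the 10 probe sets on each array, F98902 left of Cm489 in every panel; circles are replicate 1, triangles replicate 2, horizontal lines the mean of 2 arrays, and grey the range below log2 4. The arrays of a line lie far apart for cncr1 and BM1, the lines lie apart for myb31 and for 1 of the 2 myb42 probe sets, and pox1 and the second myb42 probe set stay at the floor.

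PAL1 (LOC542258) encodes phenylalanine ammonia-lyase, which turns phenylalanine into cinnamate and so feeds lignin, flavonoids and other phenolics. Its signal was 14.53 and 14.13 in F98902 and 14.03 and 14.57 in Cm489. All 4 arrays were bright and the lines overlapped. The means were 14.33 ± 0.28 in F98902 and 14.30 ± 0.38 in Cm489 (SD, n = 2 each), a difference of 0.022 with a 95% interval from -1.24 to 1.28 (limma adjusted p = 0.996). The interval leaves room for a difference of more than 1 on the log2 scale in either direction.

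The gene cncr1 (LOC542463) encodes a cinnamoyl-CoA reductase, known in maize from lignifying tissues, that commits the activated acids to monolignol synthesis. Its signal was 13.61 and 10.49 in F98902 and 10.12 and 13.68 in Cm489. In each line 1 array was high and the other low, replicate 1 being the high one in F98902 and replicate 2 in Cm489. The means were 12.05 ± 2.20 in F98902 and 11.90 ± 2.52 in Cm489 (SD, n = 2 each). Their difference was 0.15 (SE 1.71, limma adjusted p = 0.993), with a 95% interval from -4.58 to 4.88. Without F98902 replicate 1 it was -1.41 and without Cm489 replicate 1 it was -1.63, whereas without Cm489 replicate 2 it was 1.93. The direction of the cncr1 difference therefore rested on single arrays. In these fits the lone array of a line takes its spread from the other line.

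BM1 (LOC542663), known from the brown midrib1 mutants with their discoloured midribs and altered lignin, encodes cinnamyl alcohol dehydrogenase. Its signal was 13.77 and 11.41 in F98902 and 11.27 and 13.91 in Cm489. The same arrays were high and low as for cncr1. The means were 12.59 ± 1.67 in F98902 and 12.59 ± 1.87 in Cm489 (SD, n = 2 each), with a difference of 0.0035 (SE 1.31, limma adjusted p = 0.999) and a 95% interval from -3.61 to 3.62. The difference was -1.18 without F98902 replicate 1, -1.32 without Cm489 replicate 1 and 1.32 without Cm489 replicate 2.

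The other reductase gene, cncr2 (LOC542735), which in maize is best known from roots, was seen on a single array. Its signal was 2.22 and 2.16 in F98902 and 2.22 and 7.21 in Cm489. Only Cm489 replicate 2 was above the floor, by at least 3.21 over the limit of 4, and this array was also the brightest for cncr1 and BM1. With signal on 1 array, cncr2 was not tested. Across the 17621 probe sets that are no controls, 178 reached log2 4 on F98902 replicate 1 alone, 130 on F98902 replicate 2 alone, 111 on Cm489 replicate 1 alone and 247 on Cm489 replicate 2 alone.

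LAC1 (LOC606456) encodes a laccase, a copper oxidase of the type that couples monolignols in the wall. Its signal was 9.45 and 9.72 in F98902 and 10.86 and 9.56 in Cm489. Cm489 replicate 1 stood above the other 3 arrays, which lay close together, and this is an array on which cncr1 and BM1 were low. The means were 9.58 ± 0.19 in F98902 and 10.21 ± 0.92 in Cm489 (SD, n = 2 each), a difference of -0.63 (SE 0.61, limma adjusted p = 0.861) with a 95% interval from -2.31 to 1.05. Without Cm489 replicate 1 the difference was 0.023, so its sign rested on that array.

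The peroxidase genes gave little signal. Both carry synonyms (pmPOX1 and pmPOX2) that mark them as plasma membrane peroxidases, oxidases that use hydrogen peroxide, and their names do not establish a part in lignin. The gene pox1 (LOC542029) had 2.35 and 2.30 in F98902 and 2.36 and 2.34 in Cm489, at the floor on all 4 arrays. The gene pox2 (LOC542571) had 5.09 and 2.48 in F98902 and 2.19 and 2.13 in Cm489. It rose above 4 only on F98902 replicate 1, by at least 1.09, and that array is the F98902 array with high cncr1 and BM1. Neither was tested, and values at the floor do not show that a transcript was missing.

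Of the repressors, myb31 (LOC100037768) showed the larger contrast. Its signal was 7.24 and 8.72 in F98902 and 9.98 and 10.53 in Cm489. Both F98902 arrays lay below both Cm489 arrays, with a gap of 1.25 between the nearest. The means were 7.98 ± 1.05 in F98902 and 10.25 ± 0.39 in Cm489 (SD, n = 2 each), a difference of -2.27 with a 95% interval from -4.15 to -0.40. That interval lies below 0, but over all tested probe sets the difference did not pass (limma adjusted p = 0.373). The line difference of myb31 was larger in size than that of 90.9% of tested probe sets.

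The bright probe set of myb42 (LOC100101513) gave 8.69 and 10.16 in F98902 and 10.99 and 10.62 in Cm489. Again both F98902 arrays were below both Cm489 arrays, with a gap of 0.45. The means were 9.43 ± 1.04 in F98902 and 10.80 ± 0.27 in Cm489 (SD, n = 2 each), a difference of -1.38 with a 95% interval from -3.21 to 0.45 (limma adjusted p = 0.653). The second probe set assigned to myb42 had 1.98 and 1.96 in F98902 and 1.98 and 1.96 in Cm489. It was at the floor on every array, so the probe sets of myb42 disagreed on whether the gene gave signal, and only the first gives a level.

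Arrays of the lines stood apart in this way, lower in F98902, for 2 of the 6 tested genes and for 20.0% of all tested probe sets, and with a gap of at least 1 for myb31 alone among the 6 and for 5.16% of all. None of the 6 had both F98902 arrays above both Cm489 arrays, against 18.1% of tested probe sets. With so few genes these counts do not set the repressors apart from the array at large. F98902 replicate 1 was the lowest array for both repressors: without it the difference was -1.53 for myb31 and -0.64 for myb42, and without F98902 replicate 2 it was -3.01 and -2.11.

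**Figure D2:**
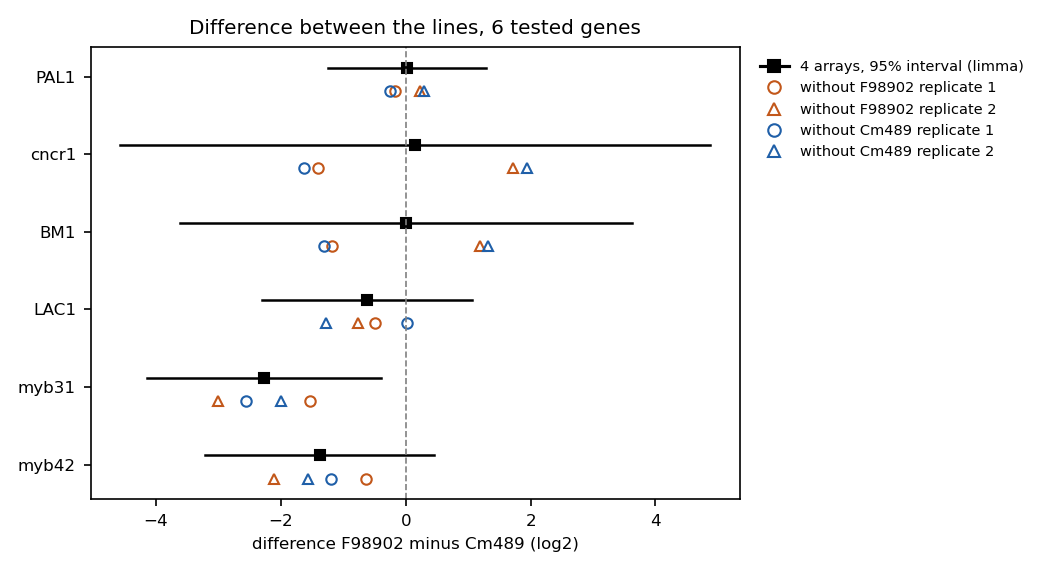
Difference between the lines, F98902 minus Cm489, in log2 for the 6 tested genes. Black squares and bars are the limma estimate from 4 arrays with its 95% interval, and open symbols the estimate without 1 array. For cncr1 and BM1 the open symbols fall on both sides of 0, from -1.63 to 1.93 and from -1.32 to 1.32, while for myb31 and myb42 all 4 lie below 0.

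The second description concerns the spread inside each line, which the comparison of the lines has to exceed. In F98902 replicate 1 was the brighter array, 8.68-fold for cncr1 and 5.16-fold for BM1, which gives -3.12 and -2.37 for replicate 2 minus replicate 1 on the log2 scale. In Cm489 replicate 2 was the brighter array, by 3.56 for cncr1 (11.8-fold) and by 2.64 for BM1 (6.24-fold). The difference of cncr1 was larger in size than that of 93.9% of tested probe sets in F98902 and 97.4% in Cm489, and that of BM1 larger than 89.2% in F98902 and 94.1% in Cm489. A difference of -2 or below in F98902 together with 2 or above in Cm489 was found for 2 of the 6 genes, cncr1 and BM1, and for 3.21% of all tested probe sets.

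The remaining genes moved less or in another way. For PAL1 replicate 2 minus replicate 1 was -0.40 in F98902 and 0.54 in Cm489, the same signs as cncr1 and BM1 at a small size. LAC1 had opposite signs to them, at 0.28 in F98902 and -1.30 in Cm489. In F98902 both repressors were lower on replicate 1, where cncr1 and BM1 were high, with replicate 2 minus replicate 1 at 1.48 for myb31 and 1.47 for myb42. In Cm489 the repressors split, with 0.56 for myb31 and -0.38 for myb42. A single order of repressor and enzyme signal over the 4 arrays was therefore not seen. The replicate numbers carry no order, and samples with the same number were not taken as pairs.

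**Figure D3:**
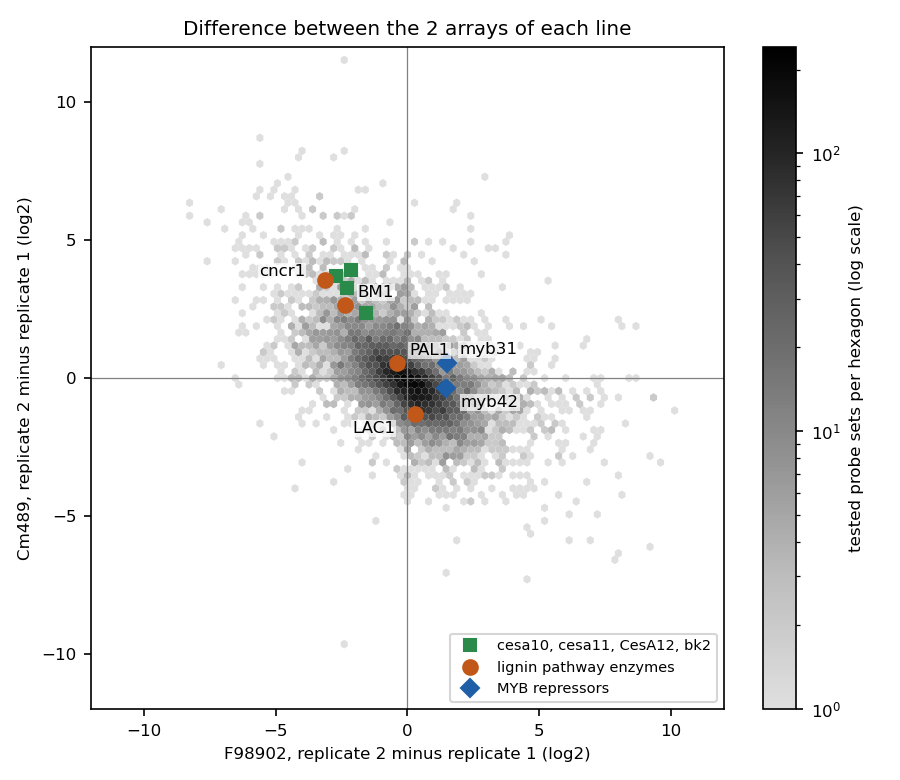
Replicate 2 minus replicate 1 in log2, F98902 on the horizontal and Cm489 on the vertical axis; grey hexagons are the 11242 tested probe sets, shaded by number on a log scale. The genes cncr1 and BM1 lie in the upper left beside the secondary wall genes, PAL1 lies near the centre, and the repressors lie to the right, at 1.48 and 1.47 for F98902.

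The position of cncr1 and BM1 was set beside other genes from lists of named genes. The secondary wall list held the cellulose synthases cesa10, cesa11 and CesA12, which make cellulose of thickened walls, and bk2, which encodes a COBRA-like protein needed for stalk strength. Its 4 genes averaged 12.76 and 10.57 in F98902 and 10.12 and 13.43 in Cm489, the high and low arrays being those of cncr1 and BM1. None of the 4 passed the test of the lines, and all 4 were brighter on replicate 1 in F98902 and on replicate 2 in Cm489, as were 32.4% of tested probe sets. When this mean was subtracted on each array, a step chosen after the values were seen, the range of cncr1 over the 4 arrays was 0.93, against 3.56 as deposited, and that of BM1 was 0.67, against 2.64. The ranges of PAL1 and LAC1 became wider, at 2.77 against 0.54 and at 4.60 against 1.41. On this relative scale cncr1 was at 0.13 ± 0.66 in F98902 and -0.13 ± 0.18 in Cm489, and BM1 at 0.057 ± 0.13 in F98902 and -0.057 ± 0.47 in Cm489 (SD, n = 2 each, centred on the mean of 4 arrays).

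**Figure D4:**
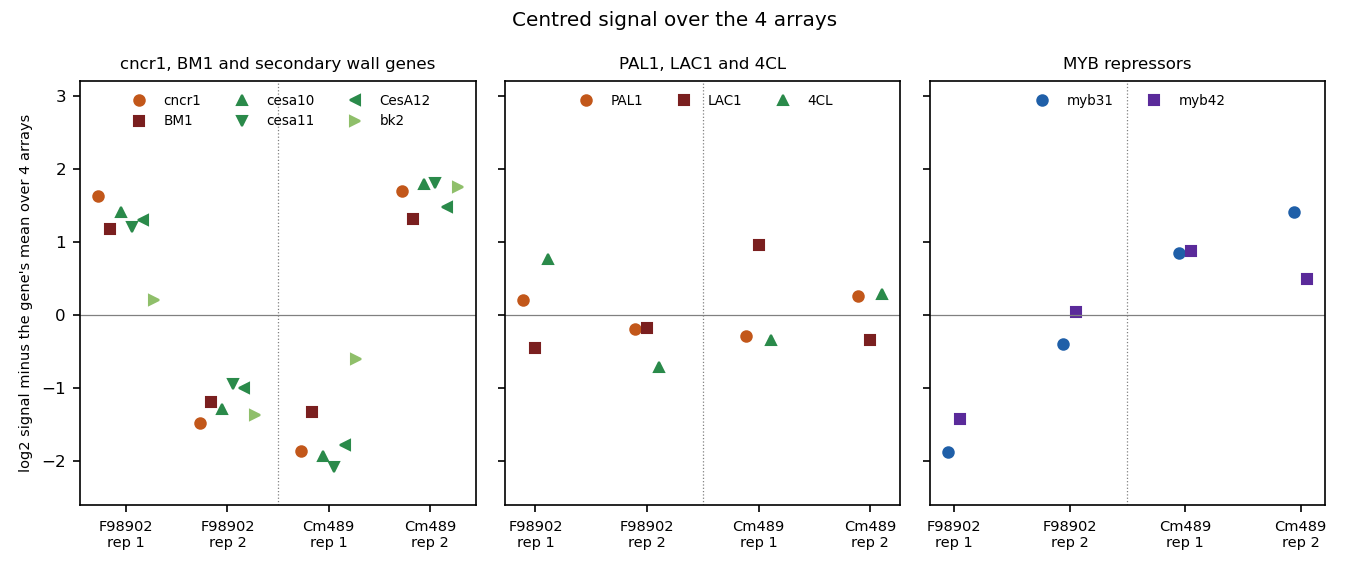
Log2 signal of each gene minus its own mean over the 4 arrays, F98902 arrays left of Cm489 arrays. In the left panel cncr1, BM1 and the cellulose synthases are above 0 on F98902 replicate 1 and Cm489 replicate 2 and below 0 on the other 2 arrays; in the middle panel PAL1 stays within 0.54 overall; in the right panel both repressors are lowest on F98902 replicate 1.

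Other lignin and phenylpropanoid genes were few among named probe sets. Beyond the 9 genes, a list of known pathway symbols found 3 more, of which 4CL and per-1 passed the filter on dim values. The test is read for 4CL alone, which did not pass. The 4CL gene (LOC542166), for the ligase that activates hydroxycinnamic acids with coenzyme A, had 13.87 and 12.40 in F98902 and 12.76 and 13.39 in Cm489. Its high and low arrays were again those of cncr1 and BM1, with replicate 2 minus replicate 1 at -1.48 in F98902 and 0.63 in Cm489, and its lines differed by 0.056 (SE 0.69, limma adjusted p = 0.993). The gene per-1 (LOC100037830) entered through its synonym PER1, shared with pox1, and its part in lignin is not established. It had 2.07 and 2.02 in F98902 and 6.92 and 8.78 in Cm489, at the floor in F98902 only. It passed the filter through its Cm489 arrays alone and its F98902 values give no level, so its test is not read here. The third, LOC541757, is the anthocyanin regulator c1, matched through the synonym MYB1, and its 2 probe sets were at the floor on all arrays.

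Markers of other cells moved across the same arrays. In the photosynthetic list 6 of 7 named genes were tested and averaged 11.15 and 8.998 in F98902 and 7.57 and 10.45 in Cm489. These means include rca1 at 3.99 on Cm489 replicate 1, which gives no level there. By the brightest probe set of each gene, 5 of 6 were brighter on replicate 1 in F98902 and on replicate 2 in Cm489, as were 32.4% of tested probe sets. The exception, me3, was brighter on replicate 2 in both lines, at 6.25 and 8.88 in F98902 and 7.43 and 7.85 in Cm489. Among the other tested probe sets of ppdk1 only 1 differed, with replicate 2 minus replicate 1 at -0.28 in F98902 and -0.62 in Cm489. The chlorophyll-binding protein gene Cab-m7 had 14.69 and 9.71 in F98902 and 6.86 and 13.87 in Cm489, a wider span than cncr1. The C4 phosphoenolpyruvate carboxylase gene pep1, a marker of leaf mesophyll, was below 4 on 3 arrays and at 6.01 on Cm489 replicate 2, the array on which cncr2 was seen. In the list of dividing cells 7 of 10 genes were tested. Their mean was 7.97 and 8.29 in F98902 and 8.38 and 7.44 in Cm489, lower on the arrays where cncr1 was high. The Cm489 means include his1 at 2.77 and 2.73, which give no level, so these means do not compare the lines. Of these 7 genes 4 (cdc2, pcna1, pcna2 and mcm6) were dimmer on replicate 1 in F98902 and on replicate 2 in Cm489, as were 40.9% of tested probe sets. For cdc2 this held for its brightest probe set only. The other tested probe set of cdc2 had replicate 2 minus replicate 1 at -0.042 in F98902 and -0.64 in Cm489. The homeobox gene kn1 ran the other way, and lg3 was brighter on replicate 1 in both lines. The tested probe set of his1 had 5.95 and 5.29 in F98902. It was below 4 on both Cm489 arrays, so it gave no direction there. The replication gene pcna1 was at 7.96 and 9.44 in F98902 and 9.52 and 7.56 in Cm489. In the pollen list 1 of 4 genes was tested, the tubulin gene TUA1, and the profilin genes pro1, pro2 and pro3 were below 4 on all arrays. No gene of these lists passed the test of the lines, in which his1 entered through its F98902 arrays alone, and the part of these cells in the cncr1 and BM1 values was not tested.

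A measure of RNA integrity also differed between arrays. The signal at the 5' end minus that at the 3' end of cyclophilin was -0.83 and -1.65 in F98902 and -1.61 and -1.02 in Cm489, and that of GAPDH -2.02 and -3.65 in F98902 and -4.10 and -3.27 in Cm489. For both, the arrays with high cncr1 and BM1 had the value nearer to 0. Ubiquitin did not follow, at -1.60 and -1.36 in F98902 and -1.60 and -1.55 in Cm489. EF1-alpha separated the lines, being nearer to 0 on both F98902 arrays, where myb31 and myb42 were low, at -1.88 and -2.97 in F98902 and -3.42 and -4.44 in Cm489. The part of RNA integrity in the lignin gene values was not tested.

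**Figure D5:**
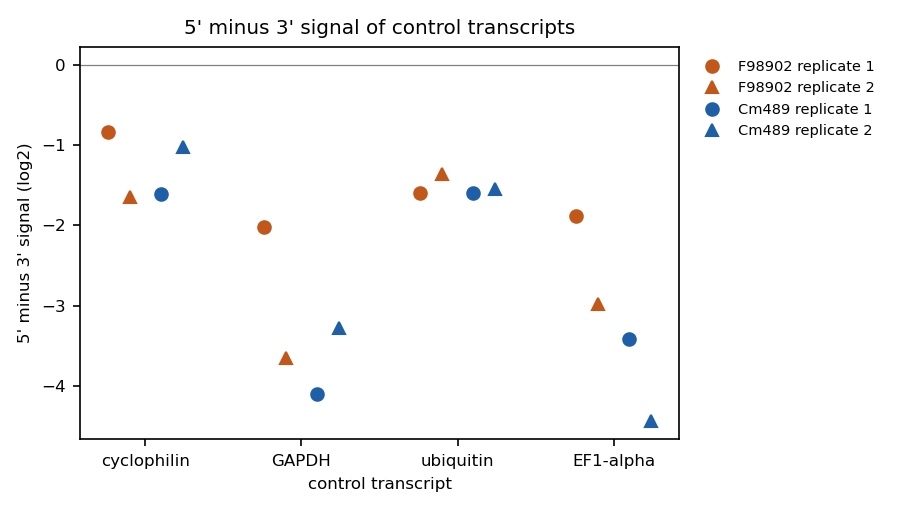
Signal at the 5' end minus signal at the 3' end in log2 for 4 control transcripts, F98902 arrays left of Cm489 arrays; circles are replicate 1 and triangles replicate 2. Cyclophilin and GAPDH are nearer to 0 on F98902 replicate 1 and Cm489 replicate 2, ubiquitin lies between -1.60 and -1.36 on all arrays, and EF1-alpha is higher in F98902.

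The named genes most like 3 of the lignin genes were found by the Euclidean distance between log2 values centred on each gene's mean, over 4 arrays and 805 tested genes. Nearest to BM1 were LOC542212 (rbcS, the small subunit of Rubisco) at 0.25, LOC541946 at 0.26 and LOC541959 (sat2) at 0.28, where the median gene was at 2.70. CesA12 ranked 5 of 805, cesa10 12, cesa11 17 and bk2 41 by this measure. For cncr1, added after its values were seen, the nearest were LOC606403 at 0.30, cesa10 at 0.31 and LOC541957 (dbf2) at 0.37, with a median of 3.48, and BM1 itself lay 0.85 away. Nearest to myb31 were PLTP at 0.23, LOC542631 at 0.47 and LOC542426 (IBP1) at 0.47, with a median of 2.72. Nearest to myb42 were LOC542569 (dbf1) at 0.34, LOC542354 (kik1) at 0.35 and LOC541954 (mez1) at 0.36, with a median of 2.08, and myb31 and myb42 were 1.11 apart. From cncr1 the repressors lay 4.58 (myb31) and 4.54 (myb42) away, and from BM1 3.84 and 3.72, but from LAC1 only 2.27 and 1.31 and from PAL1 2.65 and 2.03. LAC1 was 4.26 from cncr1, so the wide distances belong to cncr1 and BM1 and not to enzymes in general. A likeness over 4 arrays is a description of these arrays only.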

How the data were processed

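RNA of 4 samples was labelled with biotin and hybridised to 1-colour Affymetrix maize arrays, per the labels. The authors deposited 1 log2 value per probe set and array, made with GCRMA per the submitters' processing notes; its version is not stated there. Base 2 was taken from the range, 1.18 to 15.28. Of 17734 probe sets, 113 controls were left out of the tests. Names came from the platform annotation through Entrez numbers to RefSeq; 1377 of 1452 named probe sets matched, and 16168 were unnamed here.

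Probe sets at log2 4 or more on at least 2 arrays were fitted with limma 3.58.1 in R 4.3.3 (lmFit, eBayes, F98902 minus Cm489, two-sided, Benjamini-Hochberg over 11242 probe sets, threshold 0.05). SE is the moderated standard error. An exact test of 2 against 2 arrays cannot go below p = 0.333. The number of arrays limits the precision. The fit was tested on simulated data. Promoter motifs were not analysed here. The genes described were the 9 members, tested genes of 5 marker lists and the 3 named genes nearest to BM1, myb31 and myb42. Members, lists and tests were chosen with earlier results of these data known. Alternatives were 2 other dim filters, a raised floor, 2 scalings, another prior, a replicate block and leaving out each array.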

Additional observations from a re-analysis of the deposited data

How the results depend on the processing

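The count of lignin probe sets past the threshold was 0 under every alternative run, crossed pairing included. Over all probe sets the count of 200 was 79 with no dim filter, 115 with values under log2 4 raised to 4, 8 with an intensity-dependent robust prior, 0 with a replicate block and 0 to 0 with 1 array left out; the cause was not tested. The labels do not say that replicate numbers pair samples, and the lines' within-line differences correlated at -0.558 over tested probe sets. The crossed pairing set replicate 1 of each line with replicate 2 of the other and gave 284. It was not planned and follows that negative correlation in these same data, so its counts are no independent check. The crossed pairing called no lignin gene. The replicate block called no probe set at all, so its 0 for the lignin genes carries no information of its own. The same holds for the fits with 1 array left out, in which a line has a single array. With the intensity-dependent robust prior only 8 probe sets were called, so its 0 for the lignin genes says little. Of 66 alternative values of the 6 line differences 58 kept their direction, with no gene past the threshold, and 8 turned: BM1 to -0.0074 with quantile normalization, and with 1 array left out BM1 ran from -1.32 to 1.32, cncr1 from -1.63 to 1.93, PAL1 from -0.25 to 0.29 and LAC1 from -1.27 to 0.023. Adjusted p ranged from 0.250 to 0.974 for myb31 and from 0.328 to 0.9998 for myb42, and both stayed lower in F98902 throughout. All 24 rescaled within-line differences kept their sign. With 2 arrays per line, differences as wide as the intervals given above could not be detected.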
